A study of Saccharomyces cerevisiae with 12 samples.

Results

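The thiamine and vitamin B6 genes described here are 10 budding yeast genes chosen by name, THI7 (YLR237W), THI5 (YFL058W), THI11 (YJR156C), THI12 (YNL332W), THI13 (YDL244W), THI4 (YGR144W), THI20 (YOL055C), THI2 (YBR240C), SNZ1 (YMR096W) and SNZ2 (YNL333W), out of 6177 genes on the arrays. They were measured in cells grown in the medium labelled YC and in YEPD, a rich medium, with 6 arrays in each medium. Each array held total RNA of san1 mutant cells in one channel and total RNA of SAN1 cells in the other, and each medium had 3 arrays with the san1 RNA in channel 2 (arrays 1 to 3) and 3 with it in channel 1 (arrays 4 to 6). The labels give the genotypes only as san1 and SAN1, and do not state the strain background, the kind of mutation or whether arrays came from separate cultures. The product of SAN1 is a nuclear E3 enzyme that tags misfolded proteins with ubiquitin for degradation. All values below are log2 ratios of san1 over SAN1 transcript level, so that a positive value means more transcript in san1 cells. The log base is not stated for the table and was taken as 2, so the folds hold only under that base.

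Thiamine, as its diphosphate, is the cofactor of pyruvate decarboxylase, transketolase and several dehydrogenases. Yeast takes it up or builds it from a pyrimidine and a thiazole part, and the genes for both routes are switched on when thiamine is scarce. The pyrimidine part is made from histidine and pyridoxal phosphate, the active form of vitamin B6, and SNZ genes, which encode pyridoxal phosphate synthase, lie next to some of the pyrimidine genes. THI5, THI11, THI12 and THI13 are near-identical copies of the pyrimidine gene, so their spots can bind each other's RNA and their values are not independent measurements of separate genes.

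SAN1 itself read between -4.57 and -2.69 on the YC arrays and between -3.94 and -3.39 on the YEPD arrays. The same row set the direction of the ratio, so its sign is no independent check. The ratios of YEPD arrays 4 and 6 lay nearer together than those of any other pair of YEPD arrays with the same orientation (SD of their difference 0.106, against 0.155 to 0.175), and they are averaged as an alternative where a result rests on them. YC arrays 1 to 3 are YC by title and source name but YEPD by description, and were taken as YC. Of the 10 genes, 9 had enough values to be tested. THI12 had values on 3 arrays of each medium, with none on YEPD arrays 4 to 6, and is given as values only.

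The changes were small in both media, and no tested gene of the set reached a change of 0.2 in either. In YC, the pyrimidine genes THI13 and THI11 fell, and 7 of the 9 tested genes did not pass. Over all 5890 tested genes, 24.8% passed in YC, 11.8% as decreases. Both calls of the 9 were decreases of near-identical copies, so 2 in 9 is no independent count to compare with these shares. In YEPD, the transporter gene THI7 rose and 8 of the 9 did not pass, against 2.04% of all genes that passed, 1.71% as rises. The effect of san1 differed between the media for THI7 and THI13, each lower in YC than in YEPD, where 9.75% of all genes differed and 4.26% were lower in YC. Over the mean of both media 0 of 9 passed in limma, against 10.4% of all genes. At an unadjusted limma p under 0.05 the count was 1 of 9, against 1539 of 5890 genes. Tests were two-sided, from limma's linear model, and a gene passed at an adjusted p (Benjamini-Hochberg, over all tested genes) under 0.05.

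**Figure D1:**
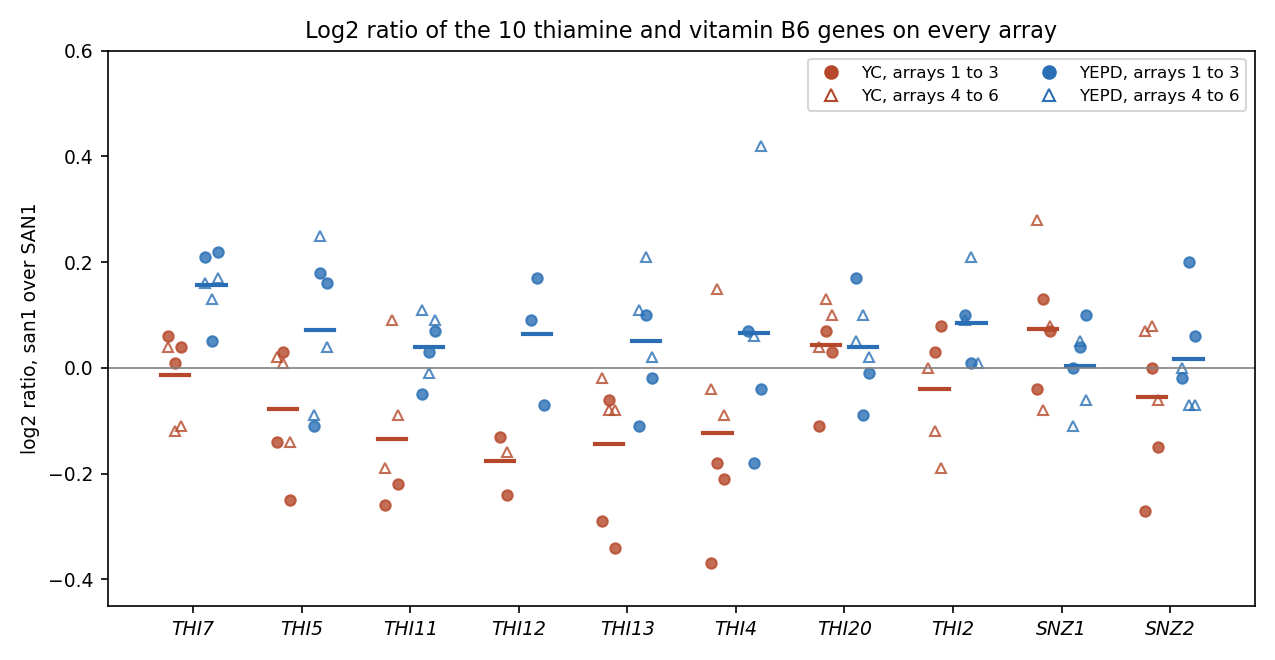
Log2 ratio of san1 over SAN1 (vertical axis) for each of the 10 genes on every array that measured it, YC left of YEPD; filled circles are arrays 1 to 3, open triangles arrays 4 to 6, and bars are means over arrays. THI7 lies above 0 on all 6 YEPD arrays, and THI13 below 0 on all 6 YC arrays.

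THI7 encodes the thiamine transporter of the plasma membrane. Its log2 ratio was 0.06, 0.01, 0.04, 0.04, -0.12 and -0.11 on YC arrays 1 to 6, and 0.21, 0.05, 0.22, 0.16, 0.13 and 0.17 on YEPD arrays 1 to 6. All 6 YEPD values were above 0, while the YC values lay on both sides of it. The media overlapped only in that the highest YC value exceeded the ratio of YEPD array 2. The fitted change was -0.01 in YC (SE 0.0321, n = 6 arrays, limma adjusted p = 0.78) and 0.16 in YEPD (SE 0.0321, n = 6 arrays, limma adjusted p = 0.02). The YEPD change was a 1.11-fold rise. The difference, YC minus YEPD, was -0.17 (SE 0.0454, limma adjusted p = 0.035). The rise in YEPD kept its size but missed the threshold without YEPD array 1 (0.15, limma adjusted p = 0.0873), array 3 (0.15, 0.0881), array 4 (0.15, 0.0921), array 5 (0.16, 0.0696) or array 6 (0.15, 0.0977), and with arrays 4 and 6 averaged (0.15, 0.0931). The difference between media missed it without any of YEPD arrays 1, 3, 4, 5 and 6 or YC arrays 2, 3, 5 and 6, at limma adjusted p-values of 0.0504 to 0.084 and differences of -0.18 to -0.15.

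The pyrimidine genes encode an enzyme that gives up its own histidine to form the pyrimidine part of thiamine. THI13 stood at -0.29, -0.06, -0.34, -0.02, -0.08 and -0.08 on YC arrays 1 to 6, and at -0.11, 0.10, -0.02, 0.11, 0.21 and 0.02 on YEPD arrays 1 to 6. It was below 0 on 6 of 6 YC arrays and above 0 on 4 of 6 YEPD arrays, with overlap between the media. Its fitted change was -0.15 in YC (SE 0.0406, limma adjusted p = 0.02), a 1.11-fold decrease, and 0.05 in YEPD (SE 0.0406, limma adjusted p = 0.79). YC arrays 1 and 3, of the same orientation, held the lowest values. The dye term of THI13 was -0.07 and did not pass (limma adjusted p = 0.092).

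THI11 stood at -0.26, -0.22, -0.19, 0.09 and -0.09 on YC arrays 1, 3, 4, 5 and 6, and at -0.05, 0.03, 0.07, 0.11, -0.01 and 0.09 on YEPD arrays 1 to 6. It was below 0 on 4 of 5 YC arrays, and the media overlapped through YC array 5. The fitted change was -0.14 in YC (SE 0.0431, n = 5 arrays, limma adjusted p = 0.03) and 0.04 in YEPD (SE 0.039, n = 6 arrays, limma adjusted p = 0.84). The difference between the media was -0.20 for THI13 (SE 0.0574, limma adjusted p = 0.047) and -0.18 for THI11 (SE 0.0582, limma adjusted p = 0.063), so of the pair only THI13 passed.

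THI5 stood at -0.14, 0.03, -0.25, 0.02, 0.01 and -0.14 on the YC arrays and at -0.11, 0.18, 0.16, -0.09, 0.25 and 0.04 on the YEPD arrays. The signs were mixed in both media, and neither fitted change passed (-0.08 in YC, SE 0.0526, limma adjusted p = 0.29, and 0.07 in YEPD, SE 0.0526, limma adjusted p = 0.77). THI12 read -0.13, -0.24 and -0.16 on YC arrays 2, 3 and 6, and 0.09, 0.17 and -0.07 on YEPD arrays 1 to 3. Of these arrays, YC array 6 had the san1 RNA in channel 1 and the others had it in channel 2. No test was run on these few values, and the share of all genes that separate the media at such counts was not examined.

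The calls of both copies in YC depended on single arrays. THI13 did not pass without YC array 3 (-0.12, limma adjusted p = 0.0725) or YC array 6 (-0.14, 0.0546), and THI11 did not pass without YC array 4 (-0.12, 0.094) or YC array 6 (-0.14, 0.0733) and was not tested without YC array 1 or 3, which left 1 value of that orientation. The difference between media for THI13 passed with YC array 2 left out (-0.23, limma adjusted p = 0.026) and missed the threshold when any of the other arrays was left out (-0.22 to -0.17, highest limma adjusted p = 0.0956). For THI11 it passed without YC array 5 (-0.23, limma adjusted p = 0.0284).

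Read together, the spots of the copies ran low in YC. Their mean per array was -0.23, -0.05, -0.26, -0.06, 0.01 and -0.12 on YC arrays 1 to 6 and -0.05, 0.12, 0.04, 0.04, 0.15 and 0.05 on YEPD arrays 1 to 6. The mean was below 0 on every YC array except array 5, and above 0 on every YEPD array except array 1. On any array the measured copies spread over 0.07 to 0.26. Averaged per array and entered in the fit as 1 gene, the copies stood at -0.12 in YC (SE 0.0353, limma adjusted p = 0.0253) and 0.06 in YEPD (SE 0.0353, limma adjusted p = 0.685), with a difference of -0.18 (SE 0.0499, limma adjusted p = 0.0407). The mean held 3 or 4 copies, depending on the array. Its lowest values were on YC arrays 1 and 3, of the same orientation. This fit was run only with all arrays, so its dependence on single arrays was not tested.

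By root-mean-square difference, other genes lay closer to a copy on these arrays than the other copies did. The root-mean-square difference between THI5 and THI13 over 12 arrays was 0.104, and that between THI5 and THI11 over 11 arrays was 0.14. Among 5628 genes with values on at least 11 arrays, ranked by this measure from THI5, THI13 came at rank 17 and THI11 at rank 321. Ranked from THI13, THI5 came at rank 37 and THI11 at rank 122. Ranked from THI11, THI13 came at rank 450 and THI5 at rank 1052. These genes share every array, so the ranks are a description of distance on these arrays. With changes this small, a gene whose ratios stay near 0 can rank as close without a like pattern.

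THI4 encodes the enzyme that builds the thiazole part of thiamine. It had the lowest YC value of the set, -0.37 on array 1, followed by -0.18, -0.21, -0.04, 0.15 and -0.09 on YC arrays 2 to 6. In YEPD it read 0.07, -0.18, -0.04, 0.06 and 0.42 on arrays 1, 2, 3, 5 and 6, and the value of array 6 was the highest of the set. The ratios overlapped widely between the media. The fitted change was -0.12 in YC (SE 0.0512, limma adjusted p = 0.1) and 0.09 in YEPD (SE 0.0566, limma adjusted p = 0.71), and the difference of -0.21 did not pass either (SE 0.0764, limma adjusted p = 0.091). THI4 was the gene of the set whose dye term passed (-0.14, limma adjusted p = 0.036), lower where the san1 RNA was in channel 2. The dye term passed for 16.4% of all tested genes.

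THI20 encodes a kinase of the pyrimidine part that joins the later steps of the pathway. Its ratio was -0.11, 0.07, 0.03, 0.04, 0.13 and 0.10 on YC arrays 1 to 6 and 0.17, -0.09, -0.01, 0.05, 0.10 and 0.02 on YEPD arrays 1 to 6. The fitted change was 0.04 in both media (SE 0.0359 in each, limma adjusted p = 0.41 in YC and 0.82 in YEPD), and the difference was 0.00 (SE 0.0507). THI2 encodes a transcription activator of the thiamine genes. It stood at 0.03, 0.08, 0.00, -0.12 and -0.19 on YC arrays 2 to 6 and at 0.10, 0.01, 0.09, 0.21 and 0.01 on YEPD arrays 1, 2, 4, 5 and 6. THI2 was above 0 on 5 of 5 YEPD arrays, but its change of 0.09 there did not pass (SE 0.0449, limma adjusted p = 0.57), nor did that of -0.03 in YC (limma adjusted p = 0.63).

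SNZ1 and SNZ2 encode pyridoxal phosphate synthase, which works with a glutaminase of the SNO family. SNZ1 read -0.04, 0.13, 0.07, 0.28, -0.08 and 0.08 on YC arrays 1 to 6 and 0.00, 0.04, 0.10, -0.11, 0.05 and -0.06 on YEPD arrays 1 to 6. SNZ2 read -0.27, 0.00, -0.15, 0.07, 0.08 and -0.06 on the YC arrays and -0.02, 0.20, 0.06, 0.00, -0.07 and -0.07 on the YEPD arrays. Both genes scattered around 0 in both media. The fitted changes of SNZ1 were 0.07 in YC (SE 0.0435, limma adjusted p = 0.24) and 0.00 in YEPD (SE 0.0435, limma adjusted p = 0.99), and those of SNZ2 were -0.05 in YC (SE 0.0482, limma adjusted p = 0.44) and 0.02 in YEPD (SE 0.0482, limma adjusted p = 0.97).

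**Figure D2:**
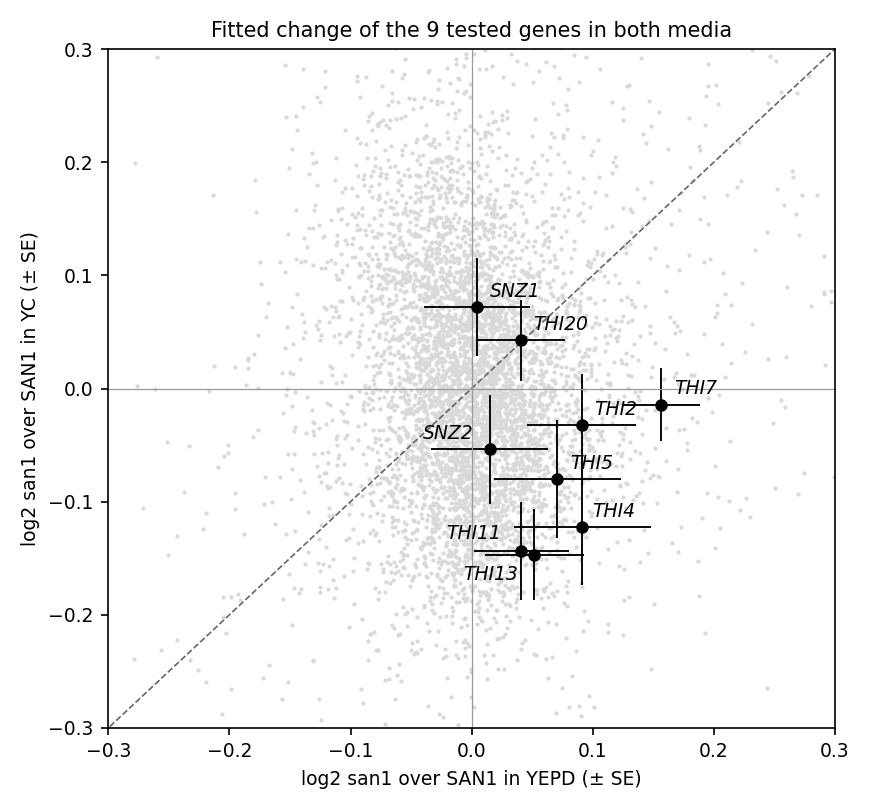
Fitted log2 change of san1 over SAN1 in YC (vertical axis) against YEPD (horizontal axis) for the 9 tested genes, with SE bars; grey dots are all other tested genes within the axis limits and the dashed line marks equal change. THI7, THI13, THI11, THI4, THI5, THI2 and SNZ2 lie below the line, THI20 on it and SNZ1 above it.

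As a group, the 9 tested genes had a median change of -0.05 in YC and 0.05 in YEPD, against -0.0016 and 0.002 for all 5890 genes. In YC 2 of 9 had a positive fitted change, and in YEPD 9 of 9, against 2904 and 3045 of 5890 genes. Of the 9 in YEPD, SNZ1 and SNZ2 stood near 0 (0.0045 and 0.015) and were above 0 in 24 and 26 of 27 alternatives. The plot of both media shows 7 of the 9 below the line of equal change. The difference, YC minus YEPD, was above 0 for 2 of 9, against 2794 of 5890 genes. Since 3 of the tested genes, THI5, THI11 and THI13, are near-identical copies, the set holds fewer than 9 separate measurements.

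The wider pathway was read from 3 further lists. Of 13 other thiamine genes, 1 rose, 2 fell and 10 did not pass in YC, and 13 did not pass in YEPD. The 3 calls in 13 were close to the 24.8% of all genes that passed in YC. THI80, which encodes the kinase that turns thiamine into its diphosphate, stood at 0.33, 0.10, 0.23, 0.32, 0.12 and 0.12 on YC arrays 1 to 6 and between -0.21 and 0.19 on the YEPD arrays. It rose in YC by 0.20 (SE 0.0452, limma adjusted p = 0.007), above 0 on 6 of 6 arrays, and stood at -0.02 in YEPD (limma adjusted p = 0.96). Its rise in YC passed in 26 of 27 alternatives. The exception, chosen after seeing the data, left out YC arrays 1 and 4, which held its highest values. There the rise was 0.14 and missed the threshold (limma adjusted p = 0.0507). THI74, named for thiamine and encoding a mitochondrial membrane protein, was between -0.23 and -0.08 on the YC arrays and between -0.16 and 0.01 on the YEPD arrays. It fell in YC by 0.16 on the log2 scale (below 0 on 6 of 6 arrays, limma adjusted p = 0.0037) and over the mean of both media by 0.11 (limma adjusted p = 0.0092). It was the 1 gene of these 13 that passed over the mean, against 10.4% of all genes. The call over the mean was lost with array number as a block (-0.11, limma adjusted p = 0.0793) and with arrays n and n plus 3 averaged (-0.12, 0.0885). The call of THI74 in YC passed in all 24 alternatives that tested it.

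The third of these calls was NRT1, a relative of THI7 that carries nicotinamide riboside. It was below 0 on 5 of 6 YC arrays, and fell by 0.14 there (SE 0.0441, limma adjusted p = 0.038), against 0.04 in YEPD (limma adjusted p = 0.86). Its call was lost without YC array 2, 3, 4, 5 or 6 (-0.15 to -0.12, limma adjusted p = 0.0538 to 0.109). THI72, a further relative of the transporter, stood at -0.11 in YC and 0.10 in YEPD and passed in neither (limma adjusted p = 0.11 and 0.55). THI21 and THI22, relatives of THI20, stood at -0.06 and -0.07 in YC and at 0.05 and -0.01 in YEPD, and did not pass.

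**Figure D3:**
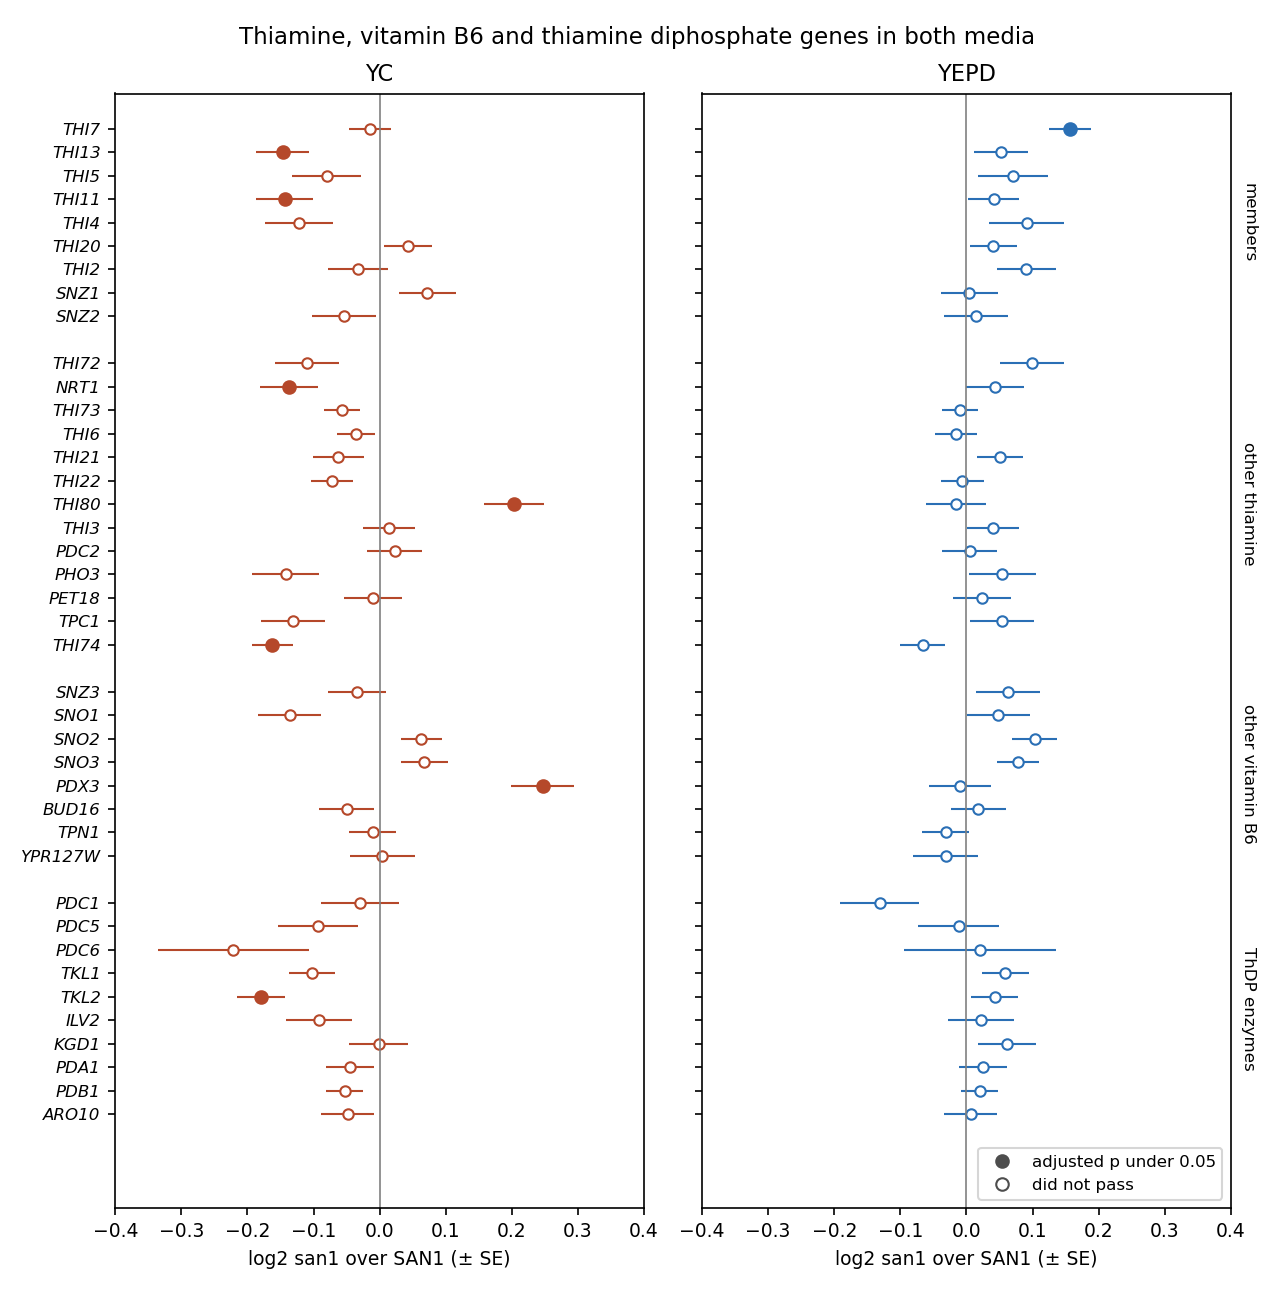
Fitted log2 change of san1 over SAN1 with SE bars for the 9 tested genes of the set and 3 further lists (ThDP, thiamine diphosphate), YC in the left panel and YEPD in the right panel; filled points passed at a limma adjusted p of 0.05. Filled points in YC are THI13, THI11, NRT1, THI80, THI74, PDX3 and TKL2, and in YEPD the filled point is THI7.

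Of 8 other vitamin B6 genes, PDX3 rose in YC and 7 did not pass, and in YEPD 8 did not pass. Of all 5890 genes, 24.8% passed in YC, and 765 genes passed as rises. PDX3 encodes the oxidase that forms pyridoxal phosphate in the last step. It stood at 0.01, 0.25, 0.20, 0.40, 0.37 and 0.25 on YC arrays 1 to 6 and at -0.09, 0.14, 0.06, -0.06, -0.01 and -0.10 on YEPD arrays 1 to 6. Its change was 0.25 in YC (SE 0.0472, limma adjusted p = 0.0034), a rise on 6 of 6 arrays, and -0.01 in YEPD (limma adjusted p = 0.97). The rise in YC passed in 27 of 27 alternatives. Over the mean of both media PDX3 stood at 0.12 (SE 0.0334, limma adjusted p = 0.043), a call lost in 15 of 26 alternatives, among them each fit without YEPD array 1, 2, 3 or 5 or YC array 2, 3, 4, 5 or 6 (0.10 to 0.12, limma adjusted p = 0.0603 to 0.0917). Among the genes of the set and the 3 lists that passed in YC, PDX3 had the largest change, and its direction was opposite to that of THI13 and THI11.

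The third SNZ copy and the SNO partners did not pass in either medium. SNZ3, next to THI5, stood at -0.03 in YC and 0.06 in YEPD. SNO1, next to SNZ1, stood at -0.14 in YC (limma adjusted p = 0.052) and 0.05 in YEPD (limma adjusted p = 0.85). SNO2 stood at 0.06 in YC and 0.10 in YEPD and passed over the mean of both media (0.08, limma adjusted p = 0.044), a call lost without any of YEPD arrays 1, 4, 5 and 6 or YC arrays 2, 3, 5 and 6 (0.07 to 0.09, limma adjusted p = 0.0531 to 0.0955). SNO3 stood at 0.07 in YC and 0.08 in YEPD. PDX3 and SNO2 were the 2 of 8 other vitamin B6 genes that passed over the mean of both media, against 10.4% of all genes.

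Among 10 genes of enzymes that use thiamine diphosphate, TKL2 fell in YC and 9 did not pass, and in YEPD 10 did not pass. The 1 decrease in 10 was near the 11.8% of all genes called as decreases in YC. TKL2, the minor transketolase gene, was between -0.24 and -0.06 on the YC arrays and between -0.12 and 0.13 on the YEPD arrays. Its change was -0.18 in YC (SE 0.0358, limma adjusted p = 0.0042), below 0 on 6 of 6 arrays, and 0.04 in YEPD (limma adjusted p = 0.81). The decrease in YC passed in 27 of 27 alternatives. The medians of this list were -0.07 in YC and 0.02 in YEPD.

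The effect of san1 also differed between the media for PDX3 (YC minus YEPD 0.26, limma adjusted p = 0.034), THI80 (0.22, 0.049) and TKL2 (-0.22, 0.021). These made 1 of 13 other thiamine genes, 1 of 8 other vitamin B6 genes and 1 of 10 thiamine diphosphate enzyme genes. Of all tested genes, 9.75% differed. Leaving out YEPD array 4 or 6 ended the call of TKL2 (limma adjusted p = 0.0613 and 0.0567). That of PDX3 was lost without YEPD array 1, 4, 5 or 6 or YC array 2, 3, 4, 5 or 6 (0.23 to 0.26, limma adjusted p = 0.0505 to 0.0809). That of THI80 was lost without YEPD array 1, 3, 4, 5 or 6 or YC array 1, 3, 4, 5 or 6 (0.18 to 0.24, limma adjusted p = 0.0519 to 0.114). With arrays n and n plus 3 averaged none of these differences passed (limma adjusted p = 0.0877 for PDX3, 0.154 for THI80 and 0.0877 for TKL2).

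Several of the genes lie near chromosome ends. Counted over protein-coding genes of the reference annotation, THI13, THI11 and SNZ2 are each the fifth from an end, THI12 is number 6 and THI5 number 10, whereas THI7, THI4, THI20, THI2 and SNZ1 lie between number 64 and number 233. Their nearest measured neighbours outside the lists numbered 15, of which 14 were tested. In YC 1 of these fell, 0 rose and the median was -0.02, and in YEPD 14 did not pass, with a range of -0.18 to 0.09. The 1 decrease in 14 stands against 11.8% of all genes called as decreases in YC. The neighbour that passed was AAD14, next to THI12, an aryl-alcohol dehydrogenase family gene (-0.10 in YC, limma adjusted p = 0.029, and 0.02 in YEPD, limma adjusted p = 0.93). AAD4, next to THI13, stood at -0.07 in YC and 0.07 in YEPD, and AAD10, next to THI11, at 0.03 and 0.00. AAD6, the nearest measured neighbour of THI5 on that side, stood at -0.07 in YC and 0.00 in YEPD. The AAD genes are relatives of one another, so their spots can also share RNA.

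Outside these lists, the genes whose ratios were closest to those of THI7 over 12 arrays were DIC1, MCH4 and PRM2, with root-mean-square differences of 0.073, 0.0824 and 0.0828 among 4609 genes measured on all 12 arrays. For the mean of the pyrimidine copies they were KRE2, DYS1 and SYN8 (0.061, 0.0637 and 0.0643). For THI13 they were GEP5, KRE2 and PAU8 (0.0861, 0.0867 and 0.0875), and for THI11, over 11 arrays, FBP1, YJL132W and ERV29 (0.0466, 0.0632 and 0.0639). All of these rest on the same arrays, and the measure is a description.

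**Figure D4:**
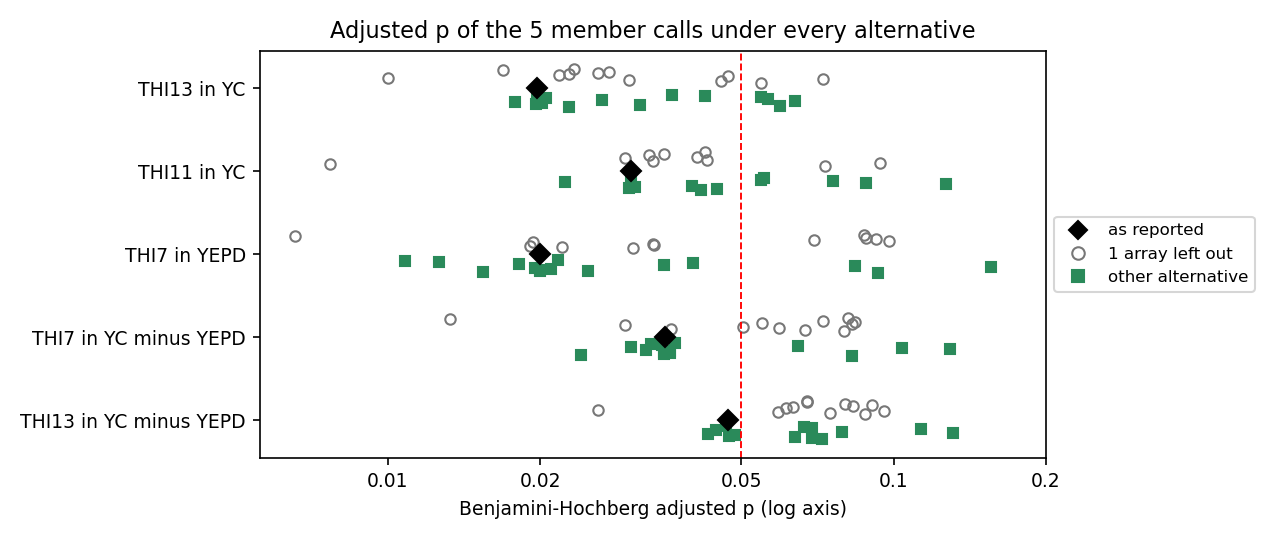
Benjamini-Hochberg adjusted p (horizontal log axis) of the 5 calls made within the set, as reported (diamonds), with 1 array left out (circles) and under other alternatives (squares); the dashed line is 0.05. Each call has values on both sides of the line.

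The plot of adjusted p by alternative shows that none of the 5 calls within the set held under every alternative. Treating arrays 1 and 4, 2 and 5, and 3 and 6 as repeats and averaging them gave limma adjusted p-values of 0.0637 for THI13 in YC and 0.156 for THI7 in YEPD, and of 0.129 for THI7 and 0.131 for THI13 in the difference between media. THI11 in YC passed there with a change of -0.19 (limma adjusted p = 0.0399). It had no value on YC array 2, which emptied the average of arrays 2 and 5. The value of YC array 5 (0.09), the 1 above 0, was thus left out of that fit. The directions of the 5 changes were the same under every alternative run.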

How the data were processed

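The authors deposited log ratios, taken as log2, for each spot of each array, already centred (column medians -0.0029 to 0.0033). The scanner, background correction, normalization, log base and filter behind empty cells are not stated in the labels or the table. The number of arrays limits the precision. Ratios were read as channel 2 relative to channel 1, from the SAN1 row. The 6204 rows (5836 to 6180 values per array) were named through the RefSeq gene table of assembly R64, by locus tag (5704) or synonym (42), with 458 keeping the file's name. Gene names and gene order were taken from it, and no coordinates are given. Averaging rows of a gene left 6177 genes, of which 5890 had 2 values in each orientation of each medium. Ratios were centred by array median and turned to san1 over SAN1.

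A mean per medium and 1 dye term were fitted per gene with limma 3.58.1 in R 4.3.3, with no imputation, for YC, for YEPD, for their difference and for their mean. As no label names separate cultures, the p-values rest on a spread between arrays that may be technical. In simulated data of 5890 genes with independent noise, 200 genes were set to change in each medium. The YC test recovered 10.4% of genes set to change by 0.1 and 70.1% of those set to 0.2, and the YEPD test 7.46% and 61.2%. False calls were 7.26% and 4.5% of calls. The YC fit of the real data called 1462 genes. Recovery under Benjamini-Hochberg depends on how many genes change, so the simulated YC rates do not measure the YC test of these data.

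The genes and lists were chosen with earlier results of these data known. All 10 genes are named, with list members that passed in any contrast, close copies and SNO partners. The range of the neighbours and the 3 genes at the smallest root-mean-square difference are also given. Alternatives changed the centring, scaling, dye term, arrays, pairing, filters, variance model and copies. Same-numbered arrays of YC and YEPD did not deviate together (correlations -0.341 to 0.224), so numbers were not taken as pairs. Within a medium, deviations of arrays n and n plus 3 correlated at 0.37, 0.558 and -0.231 in YC and at 0.418, 0.27 and 0.0525 in YEPD, and averaging them is among the alternatives.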

Additional observations from a re-analysis of the deposited data

Results flagged for a closer look

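On YC array 1, SNO1 stood at 0.12 while the other 5 YC arrays lay at -0.16 or below, and THI72 stood at 0.16 while the next highest YC array was at -0.10. These values stood far from the rest of their group of 6 arrays. In all, 44 groups of arrays of 23 genes were examined, and chance flags about 5% of them.

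The effect of san1 differed between YC and YEPD, by the test of the difference in limma, for THI7 (-0.17), THI13 (-0.20), TKL2 (-0.22), THI80 (0.22) and PDX3 (0.26), with limma adjusted p-values of 0.035, 0.047, 0.021, 0.049 and 0.034. Of all tested genes, 9.75% differed. With arrays n and n plus 3 averaged, none of these differences passed (limma adjusted p = 0.0877 to 0.154), and 3 of all genes did. THI7 was above 0 on 6 of 6 YEPD arrays and below 0 on 2 of 6 YC arrays, and THI13 was below 0 on 6 of 6 YC arrays.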

How the results depend on the processing

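The number of genes of the set that passed was 2 in YC, 1 in YEPD, 2 for the difference and 0 for the mean of both media. With 1 array left out it ranged over 0 to 2, 0 to 1, 0 to 1 and 0 to 1. Scaling the arrays alike or quantile normalization left 1 in YC and 1 for the difference. Without a dye term it was 0 in both. A dye term for each medium gave 3 for the difference, with THI11 added (-0.19, limma adjusted p = 0.0483), and 770 over all genes. It was 0 in YC with the arrays of that medium alone, 1 with genes on all 12 arrays (6 of the set tested) and 1 with the copies as 1 gene. Averaging arrays n and n plus 3 left 1 in YC, 0 in YEPD and 0 for the difference. With array number as a replicate block, though the numbers were not shown to pair the arrays, it was 1, 0 and 0, and the count over all genes was 901 in YC, 46 for the difference and 268 for the mean. Without moderation 1 remained for the difference. Chosen after seeing the data, leaving out YC arrays 1 and 4 gave 0 in YC and 1 for the difference, and averaging YEPD arrays 4 and 6 gave 0 in YEPD and 0 for the difference. No call within the set changed sign.

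Over all genes the counts of 1462 in YC, 120 in YEPD, 574 for the difference and 611 for the mean also moved. With averaged arrays they were 816, 65, 3 and 197. Without a dye term the difference had 244 and the mean 373, and the YC arrays alone gave 944. Leaving out 1 array gave as few as 966 in YC, 79 in YEPD, 167 for the difference and 349 for the mean, and averaging YEPD arrays 4 and 6 gave 200 for the difference.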
